A study of Rattus norvegicus with 9 samples.

Results

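The genes described here are 10 proliferation genes: Mki67, Top2a, Cdk1, Ccnb1, Ccna2, Ccnd1, Pcna, Mcm2, Cdkn1b and Cdkn1c. They were picked by gene symbol as usual indicators of cell division or of its arrest, and each symbol matched 1 of the 32883 entries in the rat gene count table. The question asked of them was whether the vestibular epithelium showed any sign of cell division after ototoxic damage. All 10 passed the filter on low counts and were among the 15517 genes tested.

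The libraries came from male Long-Evans rats. Control rats drank plain water, IDPN-3wk rats had IDPN (3,3'-iminodipropionitrile, which destroys hair cells, HCs, of the vestibular organs) in their water at 20 mM for 3 weeks, and IDPN-7wk rats had it for 7 weeks. Each library held the pooled utricles (2) and cristae (6) of 1 rat, with 3 rats per group and 9 libraries in all, so the spread within a group is a spread between animals. A single control group served both exposure times, per the study's methods with animals killed at each time point, and which control belonged to which time is not given in the sources used here. The tissue was whole epithelium, in which HCs, supporting cells, nerve endings and immune cells contribute RNA together.

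Cell division runs through G1, DNA replication (S phase), G2 and mitosis (M phase). Cyclins switch on cyclin-dependent kinases (CDKs), which drive each step, and CDK inhibitors of the Cip/Kip family hold them in check. Genes for mitosis are repressed in resting cells and rise late in the cycle, through promoters that often carry a CHR element and CCAAT boxes. In the adult mammalian vestibular epithelium HCs and supporting cells are resting cells, and supporting cells rarely divide after HC loss. Mki67 and the mitotic cyclins can come from cycling cells of any kind, and a bulk tissue readout does not show which cells they are.

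Promoter stretches of 4 mitotic members are shown for their CHR letters and CCAAT boxes, which the choice of genes did not use. All 4 hold CCAAT boxes, and Top2a, Cdk1 and Mki67 but not Ccnb1 hold CHR letters of the forms searched, TTTGAA and TTCGAA. Other forms of the element were not searched, so a CHR in Ccnb1 is not excluded. They are RefSeq sequences of the build GRCr8 and are counted back from the start site of each promoter entry. Capitals mark CHR letters (TTTGAA or TTCGAA) and the CCAAT box on either strand (CCAAT reads ATTGG, and the CHR letters read TTCAAA or TTCGAA, on the other strand). Top2a is given for all 250 bases searched, Ccnb1 for its last 100 bases, Cdk1 for bases 100 to 42 before the start and Mki67 for bases 117 to 90 before it.
Top2a (chr10:84473094-84473343, minus strand): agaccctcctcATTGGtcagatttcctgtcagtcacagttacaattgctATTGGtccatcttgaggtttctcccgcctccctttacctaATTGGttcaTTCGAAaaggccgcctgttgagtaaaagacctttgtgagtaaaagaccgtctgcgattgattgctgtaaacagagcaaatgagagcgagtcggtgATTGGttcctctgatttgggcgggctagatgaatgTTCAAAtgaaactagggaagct
Cdk1 (chr20:19265193-19265251, plus strand): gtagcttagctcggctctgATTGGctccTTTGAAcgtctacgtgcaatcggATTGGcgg
Ccnb1 (chr2:33655226-33655325, minus strand): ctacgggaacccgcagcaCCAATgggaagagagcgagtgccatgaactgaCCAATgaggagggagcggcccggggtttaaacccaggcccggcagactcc
Mki67 (chr1:199952683-199952710, minus strand): TTTGAAccgccgttttcgTTTGAATTGG

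RefSeq promoters were held for 7 of the 10 members, with none for Ccna2, Ccnd1 and Cdkn1c. In the Mki67 stretch the second TTTGAA and the ATTGG overlap, and the stretch lies inside the RefSeq Mki67 gene. CHR letters stood within 250 bases upstream in 4 of the 7 members, 2 times each in Mki67, Top2a, Cdk1 and Mcm2. The CCAAT box stood in 6 of the 7, with 4 copies in Mki67, 4 in Top2a, 3 in Cdk1, 2 in Ccnb1, 2 in Cdkn1b, 1 in Pcna and none in Mcm2. Over all 33469 rat promoters searched the same way, 17.4% held CHR letters, 34.0% a CCAAT box and 6.31% both. Of 56 promoters of a wider list of mitosis genes, 57.1% held CHR letters, 73.2% a CCAAT box and 48.2% both. In 40 promoters of a DNA replication list these shares were 17.5%, 57.5% and 12.5%. The letters are a description of these sequences and do not show a bound factor.

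Library totals ran from 31100118 to 46018385 estimated counts, so that 3 counts, the limit that a count of 0 allows, correspond to between 0.0652 and 0.0965 CPM (counts scaled to a common library size), for counting error only. Markers of HCs, the cells that the treatment damages, summed to between 2226 and 2718 CPM in control rats, to between 979 and 1322 CPM in IDPN-3wk rats and to between 1031 and 1149 CPM in IDPN-7wk rats. The study estimates that few HCs were lost in IDPN-3wk rats, and considers a significant loss likely in IDPN-7wk rats. At an equal depth of reads, control replicate 3 and IDPN-3wk replicates 1 and 2 held between 15387 and 15498 detected genes, and the other 6 libraries between 16834 and 17312. These 3 libraries are called the fewer-genes set. A gene was called where the adjusted p (Benjamini-Hochberg, edgeR's quasi-likelihood test over all genes tested) was under 0.05 and the fold change over 1.5.

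None of the 10 members was called in any of the 3 comparisons. The background, the share of all genes called, was 1.65% for IDPN-3wk against control, 5.13% for IDPN-7wk against control and 0.483% for IDPN-7wk against IDPN-3wk. At an unadjusted p under 0.05, 0, 0 and 2 members passed, and 15.8%, 19.3% and 13.8% of all genes. DESeq2 called 0, 0 and 1 of the members, and 741, 1317 and 527 of all genes. The smallest adjusted p among the members was 0.366, 0.282 and 0.167 in the same order. The median log2 fold change over the 10 members was 0.46, 0.33 and 0.13, against -0.00047, 0.0097 and 0.0082 over all genes. The first and second comparisons use the same control libraries and are not independent of each other. In bulk tissue, fewer cells of a type and less RNA per cell cannot be told apart, and the same holds for a rise.

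**Figure D1:**
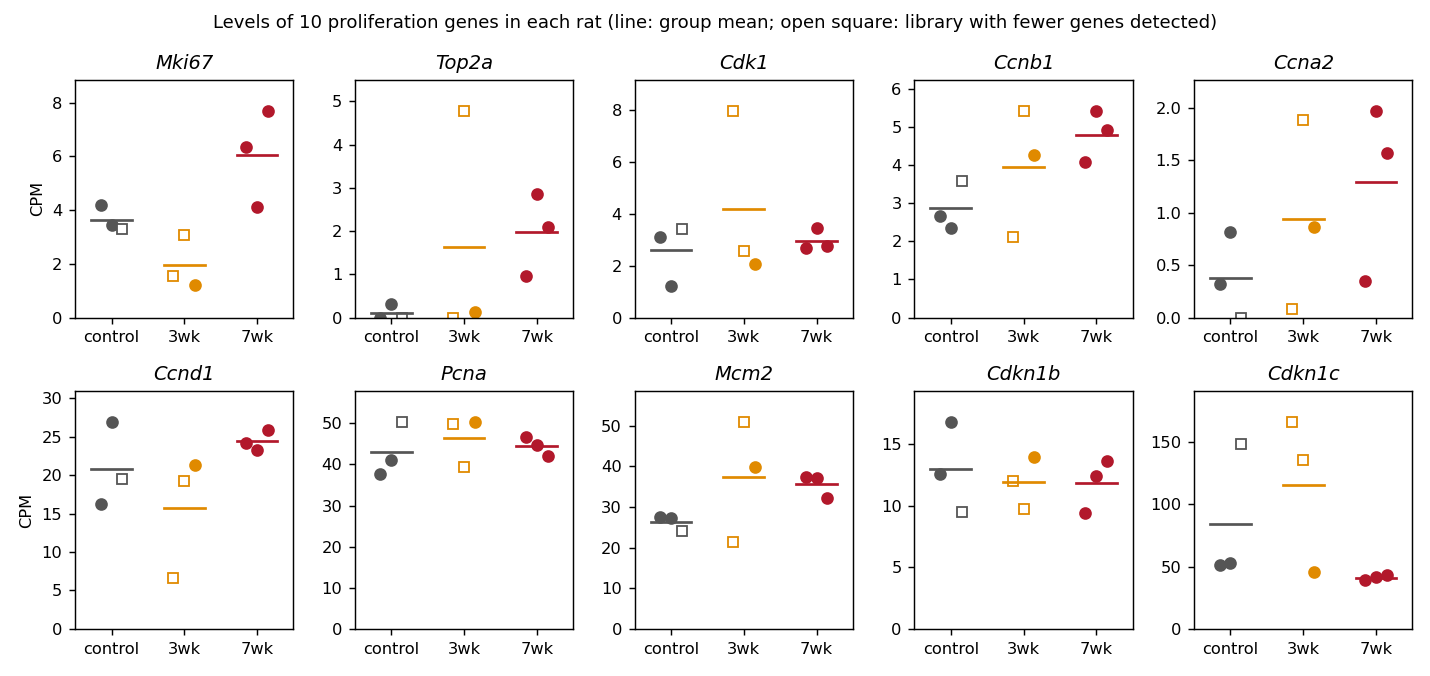
Level of each of the 10 proliferation genes (vertical axis, CPM, linear from 0) by group. Each symbol is 1 rat (3 per group), lines are group means and open squares are the libraries with fewer genes detected. Mki67 separates the exposure times, Top2a is at or near 0 except in 4 exposed rats, and Cdkn1c is high only in the 3 open squares.

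Among the genes of G2 and mitosis, Mki67 encodes the Ki-67 protein, which coats mitotic chromosomes and is absent from resting cells. Its level was 4.18, 3.45 and 3.29 CPM in the control rats (3.64 ± 0.475, SD, n = 3), 1.55, 3.06 and 1.23 CPM in IDPN-3wk rats (1.95 ± 0.979), and 6.36, 4.13 and 7.70 CPM in IDPN-7wk rats (6.06 ± 1.80). Every IDPN-3wk rat was below every control rat, and 2 of 3 IDPN-7wk rats were above every control rat. These levels rest on 110 to 155 counts in controls, 40 to 91 in IDPN-3wk rats and 201 to 312 in IDPN-7wk rats.

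Against control, the fitted log2 fold change of Mki67 was -0.90 (SE 0.444, 95% interval -1.89 to 0.086, adjusted p = 0.366) at 3 weeks and 0.74 (SE 0.439, interval -0.24 to 1.71, adjusted p = 0.422) at 7 weeks. Neither passed the edgeR test. The IDPN-7wk rats were above the IDPN-3wk rats in every pairing, 3.11-fold in the fit (95% interval 1.57 to 6.15), with a log2 difference of 1.64 (SE 0.442), unadjusted p = 0.00460 and adjusted p = 0.167. This was the smallest p of any member in any comparison, and DESeq2 gave an adjusted p of 0.0189 for it. Over all settings tried, the adjusted p of this difference ranged from 0.0189 to 0.509. Outside the fewer-genes set, which leaves a single IDPN-3wk rat, the Mki67 difference between the exposure times was 1.63 on the log2(CPM + 1) scale.

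Top2a encodes topoisomerase II alpha, which untangles sister chromatids before they part. It held 0, 10 and 0 counts in the control rats, 0, 142 and 4 counts in IDPN-3wk rats, and 47, 139 and 83 counts in IDPN-7wk rats. These correspond to 0, 0.313 and 0 CPM, to 0, 4.78 and 0.123 CPM, and to 0.957, 2.86 and 2.10 CPM. All 3 IDPN-7wk rats were above all 3 control rats, and in IDPN-3wk rats a single animal, replicate 2, carried nearly all of the signal. Without the IDPN-7wk libraries only 2 libraries would have held 10 or more counts, so Top2a was tested because it was present in IDPN-7wk rats.

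The fitted log2 fold change of Top2a was 4.23 at 7 weeks (SE 1.90, 95% interval 0.0045 to 8.46, unadjusted p = 0.0657, adjusted p = 0.300). At 3 weeks it was 3.96 (SE 1.90, interval -0.28 to 8.19, adjusted p = 0.383), and it turned to -0.73 without IDPN-3wk replicate 2. The intervals are the widest of the members, and the controls held 10 counts in total. The edgeR test called neither difference. Within the libraries outside the fewer-genes set, IDPN-7wk rats averaged 1.97 CPM and the 2 control rats 0.157 CPM.

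Cdk1 is the kinase that starts mitosis. It was at 3.13, 1.22 and 3.43 CPM in control rats (2.59 ± 1.20), 7.99, 2.56 and 2.06 CPM in IDPN-3wk rats (4.20 ± 3.29), and 2.67, 3.47 and 2.76 CPM in IDPN-7wk rats (2.97 ± 0.441). The groups overlapped, and 1 IDPN-3wk rat (replicate 1), which had no Top2a count at all, held the highest Cdk1 level of the 9. The log2 fold change against control was 0.70 (95% interval -0.65 to 2.04, adjusted p = 0.635) at 3 weeks and 0.19 (interval -1.15 to 1.54, adjusted p = 0.919) at 7 weeks.

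Ccnb1 encodes cyclin B1, the mitotic partner of Cdk1. Its level was 2.67, 2.35 and 3.57 CPM in control rats (2.86 ± 0.635), 2.13, 5.42 and 4.27 CPM in IDPN-3wk rats (3.94 ± 1.67), and 4.07, 5.43 and 4.91 CPM in IDPN-7wk rats (4.80 ± 0.683). The IDPN-7wk rats lay above the control rats without overlap, by a log2 fold change of 0.75 (SE 0.423, 95% interval -0.20 to 1.69, adjusted p = 0.393). The 3-week value was 0.46 (interval -0.48 to 1.40, adjusted p = 0.659), and there the groups overlapped.

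Ccna2 encodes cyclin A2, which acts in S phase and G2. It had the fewest counts of the members, with 12, 26 and 0 counts in control rats, 3, 56 and 28 in IDPN-3wk rats and 17, 96 and 62 in IDPN-7wk rats. Its levels averaged 0.379 ± 0.410, 0.943 ± 0.905 and 1.30 ± 0.847 CPM and overlapped. The log2 fold changes of 1.31 at 3 weeks (95% interval -1.83 to 4.44) and 1.77 at 7 weeks (interval -1.35 to 4.89) had adjusted p values of 0.716 and 0.581, and both intervals include changes in either direction.

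Within the IDPN-3wk group, replicate 2 held the highest level of Mki67, Top2a, Ccnb1, Ccna2 and Mcm2, 5 of the 7 members of the mitosis and replication groups. The exceptions were Cdk1 and Pcna. The same library held the highest summed level of 12 macrophage and leukocyte markers in its group, 415 CPM against 88.7 and 155 CPM. It was also highest for HC markers (1322 CPM against 1248 and 979) and supporting cell markers (9724 against 8089 and 7805). The same held for Schwann cell markers (10479 against 7930 and 10416) and endothelial cell markers (396 against 344 and 366). For fibroblast and erythroid cell markers it was not the highest.

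Of the replication genes, Pcna encodes the sliding clamp of the replication fork and also serves DNA repair. Its level was 37.8, 41.0 and 50.3 CPM in control rats (43.0 ± 6.52), 49.9, 39.3 and 50.3 CPM in IDPN-3wk rats (46.5 ± 6.23), and 46.6, 44.7 and 42.1 CPM in IDPN-7wk rats (44.5 ± 2.26). The groups overlapped throughout. Pcna was the most tightly measured member, with a log2 fold change of 0.11 at 3 weeks (SE 0.151, 95% interval -0.22 to 0.45, adjusted p = 0.781) and 0.048 at 7 weeks (SE 0.151, interval -0.29 to 0.38, adjusted p = 0.919). In fold terms the 7-week interval ran from 0.819 to 1.31.

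Mcm2 is a subunit of the helicase that opens DNA for replication and is loaded in G1. Its level was 27.6, 27.3 and 24.0 CPM in control rats (26.3 ± 1.99), 21.4, 50.8 and 39.9 CPM in IDPN-3wk rats (37.4 ± 14.9), and 37.3, 37.2 and 32.2 CPM in IDPN-7wk rats (35.5 ± 2.93). The IDPN-7wk rats were all above the control rats, while the IDPN-3wk rats included both the lowest and the highest library of the 9. The log2 fold change was 0.43 at 7 weeks (SE 0.261, 95% interval -0.15 to 1.01, adjusted p = 0.425) and 0.50 at 3 weeks (SE 0.261, interval -0.076 to 1.09, adjusted p = 0.388).

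Ccnd1 encodes cyclin D1, which couples growth signals to G1 progression and is also made by many resting cells. It was at 16.3, 26.9 and 19.4 CPM in control rats (20.9 ± 5.46), 6.62, 19.3 and 21.4 CPM in IDPN-3wk rats (15.8 ± 7.98), and 24.1, 23.3 and 25.8 CPM in IDPN-7wk rats (24.4 ± 1.30). The 3 IDPN-7wk rats lay above the 3 IDPN-3wk rats and inside the control range. The log2 difference was -0.41 at 3 weeks (95% interval -1.23 to 0.42, adjusted p = 0.656), 0.23 at 7 weeks (interval -0.60 to 1.05, adjusted p = 0.818) and 0.63 between the exposure times (interval -0.19 to 1.46, adjusted p = 0.501).

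Among the CDK inhibitors, Cdkn1b encodes p27Kip1, which keeps supporting cells of the inner ear out of the cycle. Its level was 12.5, 16.8 and 9.51 CPM in control rats (12.9 ± 3.64), 12.0, 9.70 and 14.0 CPM in IDPN-3wk rats (11.9 ± 2.13), and 9.43, 12.4 and 13.6 CPM in IDPN-7wk rats (11.8 ± 2.14). The 3 groups overlapped. The log2 fold change was -0.12 (95% interval -0.71 to 0.47, adjusted p = 0.877) at 3 weeks and -0.13 (interval -0.72 to 0.46, adjusted p = 0.859) at 7 weeks.

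Cdkn1c encodes p57Kip2, another Cip/Kip inhibitor, best known from tissues that leave the cycle for good. It held 51.3, 53.0 and 148 CPM in control rats (84.2 ± 55.6), 166, 136 and 45.7 CPM in IDPN-3wk rats (116 ± 62.5), and 38.8, 41.2 and 43.2 CPM in IDPN-7wk rats (41.1 ± 2.18). The IDPN-7wk rats were below all other rats. The fitted log2 difference at 7 weeks was -1.04 against control (SE 0.480, 95% interval -2.10 to 0.032, unadjusted p = 0.0581, adjusted p = 0.282) and -1.49 against IDPN-3wk rats (SE 0.480, interval -2.56 to -0.43, unadjusted p = 0.0121, adjusted p = 0.219). At 3 weeks against control it was 0.46 (interval -0.61 to 1.52, adjusted p = 0.705).

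The 3 high libraries of Cdkn1c were the 3 libraries of the fewer-genes set. Cdkn1c was between 136 and 166 CPM in that set, with 1 control and 2 IDPN-3wk rats, and between 38.8 and 53.0 CPM in the other 6 libraries. With the set as a term of the edgeR fit, the set difference was 3.06-fold (log2 1.62, adjusted p = 0.00396). Cdkn1c was the only one of the 10 members called for the set, beside 0.999% of all genes (0.644% higher and 0.354% lower in the set). This set was defined from the number of genes detected, after the data were seen, and is not a group of the study. The library names of its 3 libraries run in direct sequence. Whether these libraries were handled together is not given in the sources used here.

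Within sets, the Cdkn1c difference on the log2(CPM + 1) scale was 0.015 between the 2 IDPN-3wk rats and the control rat of the fewer-genes set, and -0.19 between the IDPN-3wk rat and the 2 control rats outside it. The 3 IDPN-7wk rats differed from those 2 control rats by -0.34. With the set in the fit, the log2 fold change against control was -0.083 at 3 weeks (adjusted p = 0.777) and -0.31 at 7 weeks (adjusted p = 0.196), and the difference between exposure times was -0.23 (adjusted p = 0.854). The IDPN-7wk group has no library in the fewer-genes set.

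**Figure D2:**
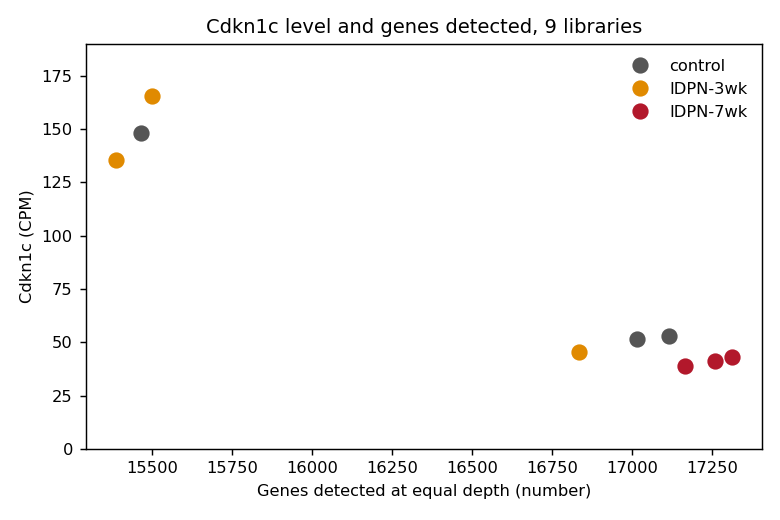
Cdkn1c level (vertical axis, CPM) against the number of genes detected at equal depth (horizontal axis) in the 9 libraries, 1 point per rat, coloured by group. The 3 libraries with 15387 to 15498 genes hold 136 to 166 CPM, and the 6 libraries with 16834 to 17312 genes hold 38.8 to 53.0 CPM.

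The genes whose levels followed Cdkn1c most closely over the 9 libraries were Ndfip2 (Pearson r of log2(CPM + 1) 0.996), Habp4 (0.995), Dnajb2 (0.993), Ypel3 (0.992) and Rps2 (0.990). Since the 9 libraries fall into the same 2 clusters in Cdkn1c, these values describe the split between the sets, and no p is given. Habp4 ran from 2.55 to 45.3 CPM and Rps2 from 74.9 to 417 CPM over the libraries.

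**Figure D3:**
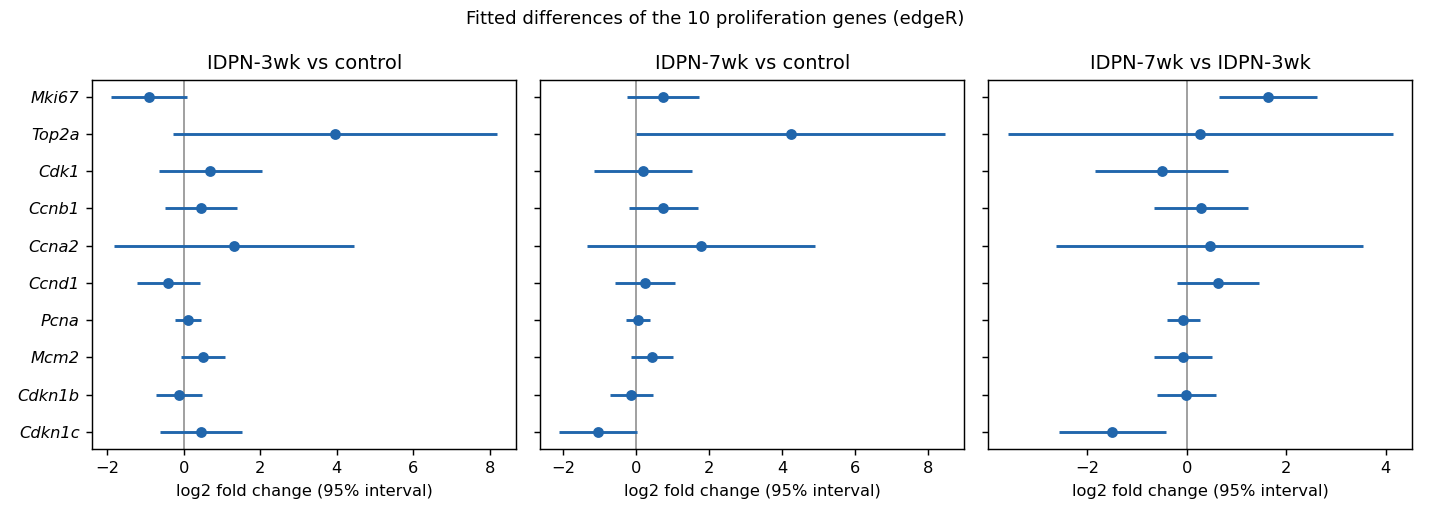
Fitted log2 fold change (horizontal axis) of the 10 proliferation genes in the 3 comparisons, with 95% intervals from edgeR. Intervals reach past 8 for Top2a and stay within -0.29 and 0.45 for Pcna in the comparisons with control, and those of Mki67 and Cdkn1c between the exposure times do not reach 0.

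Counted over the members, groups without overlap at 7 weeks against control were Top2a, Ccnb1 and Mcm2 on the higher side and Cdkn1c on the lower, 4 of 10, where 34.3% of all genes did not overlap (17.2% higher and 17.1% lower). At 3 weeks against control Mki67 alone did not overlap (lower), 1 of 10 against 19.6% of all genes. Between the exposure times Mki67 and Ccnd1 (higher at 7 weeks) and Cdkn1c (lower) did not overlap, 3 of 10 against 21.0% (12.1% higher and 8.92% lower). The share of members was close to the background in the first and last of these and below it in the other. An exact permutation test of 3 against 3 rats cannot give a two-sided p below 0.1.

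Because the members are few, 4 wider lists of cell cycle genes were described beside them, with 160 genes tested in all, the members included. None of the 160 was called higher in exposed rats at either time by edgeR, while DESeq2 called 5 higher at 3 weeks (Bub1, E2f2, Fen1, Gadd45b and Kif4a) and 1 at 7 weeks (Cdkn1a). In both directions together, DESeq2 called 6 and 3 of the listed genes at these times, and 741 and 1317 of all genes. At 3 weeks edgeR called 1 lower and at 7 weeks 2 lower, or 0.625% and 1.25%, where 1.65% and 5.13% of all genes were called. Of all genes, 0.438% were called higher and 1.21% lower at 3 weeks, and 2.00% higher and 3.13% lower at 7 weeks. Between the exposure times edgeR called none, beside 0.348% of all genes called higher and 0.135% lower. There DESeq2 called 1, Mki67, beside 527 of all genes. At an unadjusted p under 0.05, 9 of the 160 were higher and 3 lower at 3 weeks (7.12% and 8.63% of all genes), and 9 were higher and 7 lower at 7 weeks (8.55% and 10.7%). Between the exposure times 7 were higher and 11 lower (6.33% and 7.46%). Each of these 6 shares of the lists was below that of all genes.

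In the mitosis list, with 62 genes tested, most fitted values at 7 weeks were above control, with no call on the higher side and 1, Nek2, on the lower. There 54 genes had a fitted value above control and 8 below, against 51.1% of all genes above, and the list's median log2 fold change was 0.63, against 0.0097 for all genes. In 17 of the 62 the IDPN-7wk rats lay above the control rats without overlap (27.4%, against 17.2% of all genes). At an unadjusted p under 0.05, 1 gene was higher and 3 were lower. At 3 weeks 40 were above control and 22 below (49.9% of all genes were above), with a median of 0.25, and 3 genes did not overlap on each side (8.78% of all genes on the higher side and 10.9% on the lower).

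These counts and medians are a description and no support for a rise, since scarce genes of the list could pass the filter through the IDPN-7wk libraries. With those libraries left out of the filter and the fit, 50 of the mitosis genes were tested in place of 62. Over the settings tried, the 7-week median of the list ran from 0.26, over 23 genes with at least 10 counts in every library, to 0.84 without control replicate 1. The 3-week median ran from -0.032 without IDPN-3wk replicate 3 to 0.73 with the library set in the fit. Summed over the 63 mitosis genes in the table, the level was 291, 263 and 286 CPM in control rats, 271, 325 and 264 CPM in IDPN-3wk rats, and 283, 290 and 305 CPM in IDPN-7wk rats. These sums overlapped between the groups. They include Nek2, which averaged 23.0, 10.9 and 7.40 CPM in control, IDPN-3wk and IDPN-7wk rats. Its fall lowers the sums of exposed rats, and sums without Nek2 are not given here.

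**Figure D4:**
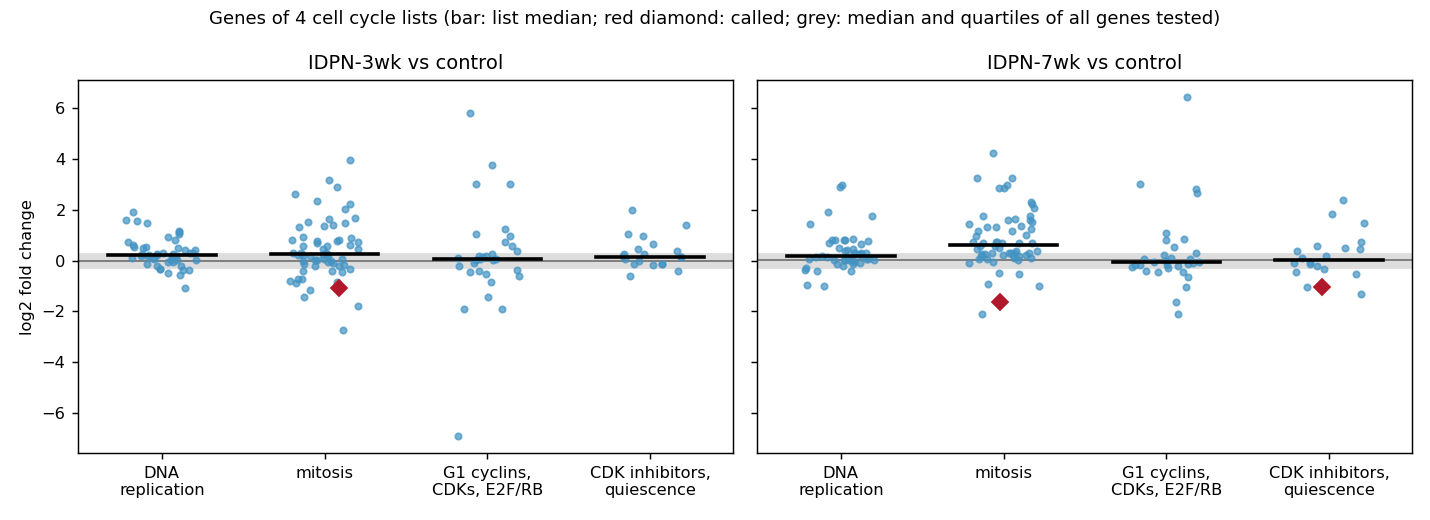
Fitted log2 fold change (vertical axis) of each tested gene of 4 cell cycle lists against control, at 3 weeks (left) and 7 weeks (right). Each point is 1 gene, black bars are list medians, red diamonds are called genes and the grey band spans the quartiles of all genes tested. The mitosis list has a median of 0.25 at 3 weeks and 0.63 at 7 weeks, and the called genes, Nek2 and Tob1, are on the lower side.

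The called mitosis gene was Nek2, a centrosomal kinase that parts the centrosomes before mitosis. In the study, Nek2 was lower in every ototoxicity model. It is marked there, from published data, as selective for HCs over supporting cells. It fell from 25.6, 21.1 and 22.2 CPM in control rats to 11.2, 12.3 and 9.32 CPM in IDPN-3wk rats and 8.53, 6.48 and 7.19 CPM in IDPN-7wk rats. All exposed rats were below all control rats. The log2 fold change was -1.07 (SE 0.201, adjusted p = 0.0282) at 3 weeks and -1.63 (SE 0.201, adjusted p = 0.0014) at 7 weeks, in the direction opposite to most of its list. The sum of 10 HC markers was lower in the same groups, with means of 2425, 1183 and 1082 CPM in control, IDPN-3wk and IDPN-7wk rats, and the part of HCs in the Nek2 values was not tested. The 3-week call was lost in a fit of the 2 groups alone (adjusted p = 0.0842) and without any 1 of 6 libraries (each control, IDPN-3wk replicates 1 and 3, and IDPN-7wk replicate 3), with log2 values of -1.13 to -0.97 and adjusted p values of 0.0527 to 0.130.

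The DNA replication list, with 47 genes tested, had no call at either time. Of these, 35 were above control at 3 weeks (74.5%, against 49.9% of all genes, median log2 fold change 0.24). At 7 weeks 36 were above (76.6%, against 51.1%, median 0.20). At an unadjusted p under 0.05, 3 and 2 were higher with none lower, where 7.12% and 8.55% of all genes were higher. Groups did not overlap on the higher side for 4 genes at 3 weeks (8.51%, against 8.78% of all genes) and 13 at 7 weeks (27.7%, against 17.2%). On the lower side 1 gene did not overlap at each time. The summed level of its 48 genes was 667, 675 and 688 CPM in control rats, 758, 714 and 774 CPM in IDPN-3wk rats, and 759, 734 and 710 CPM in IDPN-7wk rats. Both exposed groups lay above the control rats in this sum without overlap. These counts, medians and sums are a description and no support for a rise, since the list was chosen with earlier results of these data known. The list's smallest p values belonged to Fen1, the flap endonuclease that trims Okazaki fragments, and Slbp, which binds histone mRNA.

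Fen1 was at 11.2, 9.96 and 10.8 CPM in control rats, 18.9, 18.1 and 16.7 CPM in IDPN-3wk rats, and 11.1, 13.2 and 13.0 CPM in IDPN-7wk rats. The IDPN-3wk rats stood above all others (log2 fold change 0.75, SE 0.178, edgeR adjusted p = 0.0717, DESeq2 adjusted p = 0.00204). Slbp went from 41.5, 40.3 and 32.2 CPM in control rats to 56.8, 49.3 and 56.8 CPM at 7 weeks, a log2 difference of 0.52 (SE 0.142, adjusted p = 0.0652). Neither passed the edgeR test.

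The list of G1 cyclins, CDKs and the E2F/RB genes, with 31 tested, had no call and medians of 0.069 at 3 weeks and -0.058 at 7 weeks. Its smallest p values belonged to Myb and E2f2. Myb, a transcription factor of cycling progenitor cells, held 15, 2 and 26 counts in control rats, 0 in each IDPN-3wk rat and 5, 7 and 13 in IDPN-7wk rats. E2f2, an activator of S phase genes, was at 2.89, 3.35 and 2.59 CPM in control rats, 10.7, 5.49 and 4.95 CPM in IDPN-3wk rats and 3.99, 3.06 and 3.87 CPM in IDPN-7wk rats. The 3-week log2 fold change of E2f2 was 1.26 (SE 0.383, adjusted p = 0.147 with edgeR and 0.0346 with DESeq2).

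In the list of CDK inhibitors and quiescence genes, with 20 tested, 1 gene was called at 7 weeks and none at 3 weeks. The share at 7 weeks was 5%, where 5.13% of all genes were called. Tob1, an antiproliferative protein, fell from 48.9, 45.1 and 42.8 CPM in control rats to 14.4, 23.0 and 28.6 CPM in IDPN-7wk rats, with 35.8, 31.5 and 22.5 CPM at 3 weeks. The log2 fold change of Tob1 was -1.05 at 7 weeks (SE 0.249, adjusted p = 0.0367) and -0.61 at 3 weeks (adjusted p = 0.274). The 7-week call was lost with the library set in the fit (-0.98, adjusted p = 0.0691) and without any 1 of 5 libraries (each control, and IDPN-7wk replicates 1 and 2), with log2 values of -1.09 to -0.82 and adjusted p values of 0.0739 to 0.120. Cdkn1a, which encodes p21Cip1, the Cip/Kip inhibitor induced by p53, was looked at after its values were seen. Its log2 fold change was 1.84 at 7 weeks (SE 0.558, 95% interval 0.60 to 3.08), where DESeq2 called it and edgeR did not, and 0.97 at 3 weeks (adjusted p = 0.442).

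Markers of immune cells, which such a sample can hold beside other cell types, were highest at 7 weeks. By group mean, Mki67, Top2a, Ccnb1, Ccna2 and Ccnd1 were also highest at 7 weeks, and Cdk1, Pcna, Mcm2 and Cdkn1c were highest at 3 weeks. The summed level of 12 macrophage and leukocyte markers was 247, 213 and 337 CPM in control rats, 88.7, 415 and 155 CPM in IDPN-3wk rats, and 670, 500 and 458 CPM in IDPN-7wk rats. The IDPN-7wk rats were above all other rats. IDPN-3wk replicate 2 was the highest of its group, as it was for HC, supporting cell, Schwann cell and endothelial cell markers. Of the 12 markers, Lyz2 reached the highest level in any library, 378 CPM, followed by Csf1r with 101 CPM. High sums therefore lean on Lyz2. Within the IDPN-7wk rats, replicate 1 had the highest macrophage and leukocyte sum and the lowest Top2a, Ccnb1 and Ccna2 (0.957, 4.07 and 0.346 CPM). Its Mki67 and Ccnd1 levels lay between those of the other IDPN-7wk rats. Of the 11 markers tested, 10 were above control at 7 weeks (90.9%, against 51.1% of all genes, median log2 fold change 1.43). At 3 weeks 5 were above (45.5%, against 49.9% of all genes, median -0.038). The complement gene C1qb was called at 7 weeks, 1 of 11 (9.09%), where 5.13% of all genes were called. The T cell marker Cd3e was at 0 counts in 4 libraries and at most 0.492 CPM, and the macrophage marker Cx3cr1 was at 0 in 1 library. Sums of 12 supporting cell markers averaged 13182, 8539 and 6632 CPM in control, IDPN-3wk and IDPN-7wk rats. Otog alone held between 2477 and 8545 CPM of these sums. The median log2 fold change of the 11 supporting cell markers tested was -0.34 at 3 weeks and -0.48 at 7 weeks. Sums of 8 Schwann cell and myelin markers averaged 10659.5, 9609 and 5884 CPM in control, IDPN-3wk and IDPN-7wk rats. In the same order, sums of 5 endothelial cell markers averaged 302, 369 and 361 CPM, with all 5 fitted above control at both times. Those of 7 fibroblast and stroma markers averaged 779, 861 and 791 CPM. The part of any of these cell types in the levels of the members was not tested.

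**Figure D5:**
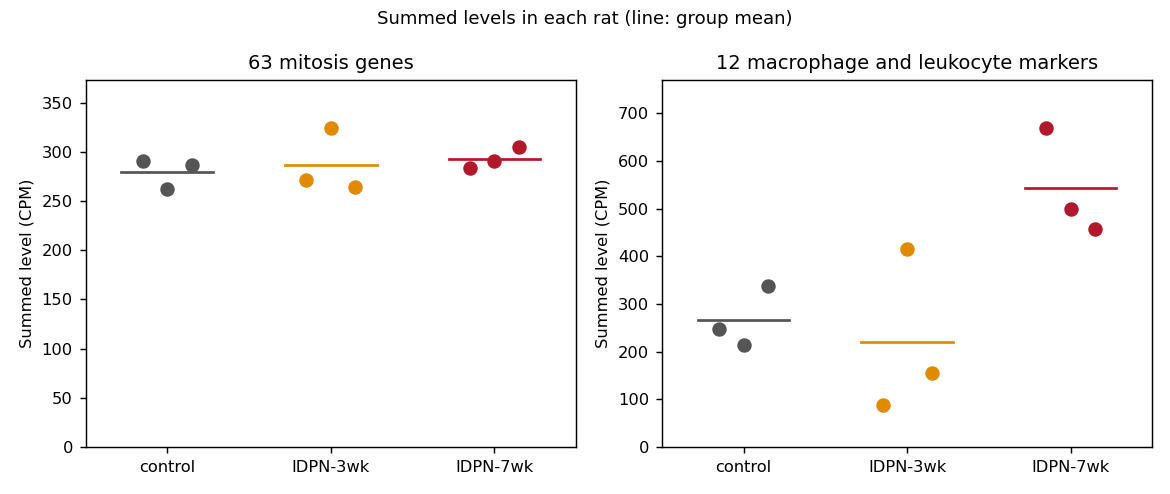
Summed level (vertical axis, CPM, from 0) of 63 mitosis genes (left) and 12 macrophage and leukocyte markers (right) in each of the 9 rats, with group means as lines. The mitosis sums, which include Nek2, overlap between the groups at 263 to 325 CPM. The marker sums of the IDPN-7wk rats (458 to 670 CPM) lie above those of all other rats.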

How the data were processed

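The deposited table held estimated counts per gene as whole numbers. Per the labels, the authors prepared SMARTseq2 libraries (oligo-dT primed, amplified by PCR, without molecular identifiers) from the vestibular epithelia of each rat. They aligned the reads with STAR 2.5.3a and estimated the counts with RSEM 1.3.0 (versions from the submitters' processing notes), on the rat Rnor6.0 genome. The strand setting of the counting is not given in the sources used here, so reads of overlapping antisense genes may be included. Without molecular identifiers, amplified copies cannot be told from separate molecules, so the limit that a count of 0 allows covers counting error only.

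The counts were tested with edgeR 4.0.16 in R 4.3.3 (filterByExpr, TMM, quasi-likelihood test over all 9 libraries, Benjamini-Hochberg adjustment over 15517 genes), where the study used DESeq2. Calls needed an adjusted p under 0.05 together with a change of over 1.5-fold. CPM values are TMM-scaled, and those of the limit for 0 counts are not. The log2(CPM + 1) scale was used for within-set differences. Intervals are 95% from the fit, with 6 residual degrees of freedom, and include the spread between rats. No 2 libraries of a group agreed within sampling noise. All libraries carry 1 batch date.

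The members, gene lists and marker lists were chosen with earlier results of these data known. Named genes were all 10 members, every gene called from 4 lists (at most 8 per list) or the 2 with the smallest p where a list had none, and the 5 genes most alike to the member with the smallest p against control. Of the listed genes and markers, Ccnb2, Cdkn2d, Itgam, Cd79a, Pecam1, Hba-a1, Hba1 and Hbb-bs had no matching symbol. Orc1, Ncapg, Cdkn2a, Hes5 and Cd3e did not pass the filter. Alternatives were DESeq2 1.42.0, its size factors, other filters and thresholds, a fit of 2 groups, the library set as a covariate and leaving out each library. The set term was added after seeing the data. The scripts were tested on simulated data. Promoter sequences came from RefSeq (GRCr8). This differs from the build of the counts, so no coordinate was joined to them.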

Additional observations from a re-analysis of the deposited data

Results flagged for a closer look

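The rats of the 2 exposure times lay on opposite sides of the control mean of Mki67, though neither group was called against control. The level of Mki67 was below the control mean of 3.64 CPM in every IDPN-3wk rat (1.23 to 3.06 CPM) and above it in every IDPN-7wk rat (4.13 to 7.70 CPM). The log2 difference between IDPN-7wk and IDPN-3wk rats was 1.64. The direct edgeR test of it gave an unadjusted p of 0.00460 and an adjusted p of 0.167, which misses the threshold. Per the study's methods, rats were killed when their treatment ended. Age or start of treatment may therefore differ between the exposure times, and cannot be told apart from exposure.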

How the results depend on the processing

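Counts of called genes moved with the setting, while no member was called in either comparison with control under any of them. Over all genes, DESeq2 called 741 at 3 weeks, 1317 at 7 weeks and 527 between the exposure times, against 256, 796 and 75 with edgeR. A fit of the 2 groups alone called 118, 1249 and 46, a fold change above 2 called 159 and 480 against control, the library set in the fit called 37 between the exposure times, and at least 10 counts in every library called 123 there. Leaving out 1 library gave 75 to 439, 432 to 969 and 39 to 445. In the cell cycle lists, DESeq2 called 6 genes at 3 weeks (Bub1, E2f2, Fen1, Gadd45b, Kif4a and Nek2), 3 at 7 weeks (Cdkn1a, Nek2 and Tob1) and 1 between the exposure times (Mki67). The 2-group fit called 0 at 3 weeks and the library set left 1 at 7 weeks. Leaving out 1 library gave 0 to 2, 1 to 3 and 0 to 5, the 5 without IDPN-3wk replicate 3 (Cdkn1c, E2f4, E2f6, Kif23 and Prc1). Among the members, 1 was called between the exposure times by DESeq2 (Mki67, 1.63, adjusted p = 0.0189) and 1 without IDPN-3wk replicate 3 (Cdkn1c, -1.87, adjusted p = 0.0466), and 0 to 1 over all single libraries left out. With the library set in the fit the log2 difference turned to 0.28 for Cdk1 and -1.17 for Ccna2 between the exposure times, and to 0.060 for Cdkn1b and -0.083 for Cdkn1c at 3 weeks. Leaving out 1 library turned the sign of these values, none of them called. Top2a ran from -0.73 to 8.98 at 3 weeks and from -0.31 to 4.97 between the exposure times, the highest where both remaining controls were at 0 or IDPN-3wk replicate 2 was absent. Cdk1 ran from -0.17 to 1.02 at 3 weeks, -0.14 to 0.45 at 7 weeks and -0.83 to 0.36 between the times. Between the times Ccnb1 ran from -0.012 to 0.59, Ccna2 from -0.082 to 1.46 and Mcm2 from -0.35 to 0.22. Pcna at 7 weeks ran from -0.037 to 0.18. Cdkn1b ran from -0.30 to 0.11 at 3 weeks, -0.31 to 0.098 at 7 weeks and -0.14 to 0.13 between the times. The cause of these changes was not tested. No paired analysis was possible because the labels give no replicate numbers. A number in the sample titles, whose meaning is not stated, is shared between groups by 1 pair of rats (IDPN-3wk replicate 1 and IDPN-7wk replicate 1). All 3 controls share another that no exposed rat has, so what it marks cannot be told apart from exposure. At these depths a count of 0 (Top2a in 3 libraries and Ccna2 in 1) allows up to 3 counts.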
